A study of Mus musculus with 7 samples.

Results

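The genes described here are those of the interleukin-1 (IL-1) family that mark its ligands, antagonist and receptors: Il1a, Il1b, Il1rn, Il1r1, Il1r2, Il1rap, Il1rl1, Il18 and Il33. They were taken by gene symbol from the table of read counts, and all 9 were found among its 24421 genes. Eosinophils, the granulocytes of type 2 immunity, had been sorted from digested, damaged muscle of mice 3 days after ntx, an abbreviation that the labels do not spell out. The gate kept cells positive for CD45 and SiglecF and negative for NK1, Ly6G and CD3e. RNA sequencing gave 4 libraries from mice labelled IL5-Tg, which carry a transgene for IL-5, the main growth and survival factor of eosinophils, and 3 libraries from mice labelled WT. The labels give neither the promoter that drives the transgene nor the strain or age of the mice. The series' title concerns the mdx mouse, a model of Duchenne muscular dystrophy, but the sample labels name no mdx allele. Whether each library is a mouse of its own is not stated either, and the p-values here may therefore rest on technical spread alone.

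IL-1 alpha and IL-1 beta bind the receptor IL1R1, which then recruits the accessory chain IL1RAP and signals through MyD88, IRAK kinases and NF-kappaB. The pathway is held back by the receptor antagonist encoded by Il1rn, which occupies IL1R1 without signalling, and by IL1R2, a decoy that binds IL-1 but lacks the signalling domain. IL-33, an alarm signal kept in the nuclei of stromal cells, uses the receptor ST2, encoded by Il1rl1, with the same accessory chain, and is known to activate eosinophils, mast cells and group 2 innate lymphoid cells. IL-18 has receptor chains of its own.

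Total counts per library were 12135031 to 20231509 in IL5-Tg and 11581365 to 18408816 in WT libraries, and 10877 to 14391 genes had at least 1 read. The most common low count was 1, 1, 1 and 4 reads in IL5-Tg replicates 1, 2, 3 and 4, and 5, 8 and 12 reads in WT replicates 1, 2 and 3. The same number of reads may carry less information in libraries where this count is higher, which was not tested. WT replicate 3 also stood apart by its low level of fibroblast markers, given below beside the genes it touches, and of some markers of other cells. Sample titles start with 81 in IL5-Tg replicates 1 and 2, with 82 in IL5-Tg replicate 3 and WT replicate 1, with 86 in IL5-Tg replicate 4 and WT replicate 2, and with 87 in WT replicate 3. What the title numbers stand for is not stated. Ratios of IL5-Tg to WT within the shared starts 82 and 86 are given for every member.

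None of the 9 genes passed the test between IL5-Tg and WT libraries by edgeR over all 12428 tested genes, with adjusted p from 0.185 to 0.993, where 0.410% of all tested genes passed, 0.338% higher and 0.0724% lower in IL5-Tg (adjusted p under 0.05). All 9 passed the filter on low counts. At an unadjusted p under 0.05 there were 4 of the 9 members, against 9.04% of all tested genes. Il1rl1 and Il1rn were higher in IL5-Tg, as were 3.49% of all tested genes by that measure, and Il1b and Il1r2 were lower, as were 5.54%. Without WT replicate 1, 2 members were left at that level, both higher, and neither Il1b nor Il1r2 was among them. DESeq2 called 1 member, Il1rl1, which was higher, where it called 1.81% of all genes (1.14% higher and 0.677% lower). Limma-voom with quality weights called 0 members and 0.257% of all genes. The 9 log2 fold changes, given throughout as IL5-Tg over WT, ran from -1.35 to 1.30 with a median of 0.07, and the median over all tested genes was 0.03 with 5th and 95th percentiles of -1.04 and 1.24. The groups did not overlap for 3 members, against 9.36% of all tested genes, with Il1rl1 higher in IL5-Tg (4.76% of all) and Il1b and Il1rap lower (4.60% of all). Levels are given in CPM, the counts of a gene set relative to library size after TMM scaling in edgeR, and positions are on mm10 from GENCODE vM21. In such bulk libraries, fewer cells of a type and less RNA per cell cannot be told apart.

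**Figure D1:**
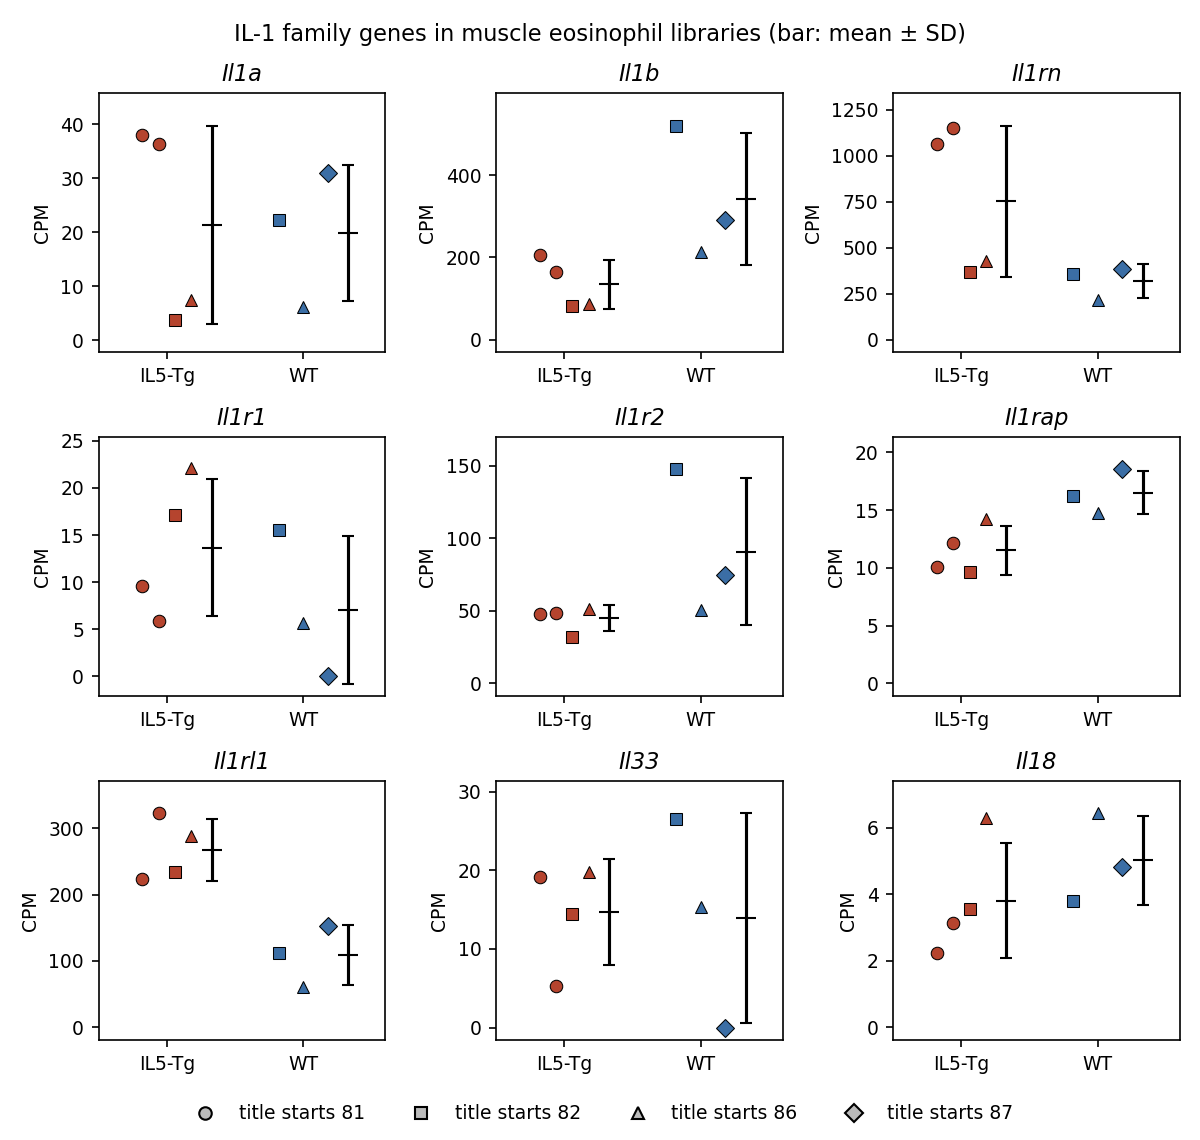
CPM of the 9 IL-1 family genes in each library, with IL5-Tg at the left and WT at the right of each panel. Symbols mark the start of the sample title, and the bar beside each group is its mean and SD. Il1rl1 lay at 224 to 323 CPM in IL5-Tg and 61.3 to 152 CPM in WT libraries, while Il1rn was high only in the pair of IL5-Tg libraries whose titles start with 81.

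The promoters of the 3 most abundant members are shown because Il1rn and Il1rl1 had positive and Il1b negative log2 fold changes in the same libraries. Each is the stretch of 240 bases that ends 11 bases before a RefSeq transcript start on GRCm38.p6, written 5′ to 3′ on the strand of the gene. Il1rl1 has a distal and a proximal start, of which the distal one is known from mast cells, and both are given. For Il1rn the most upstream of its starts is given. Capitals mark matches on either strand to GGG and CC parted by any 5 bases, the core of NF-kappaB sites, to TTCNNNGAA, the site of STAT factors, which act downstream of IL-5, or to GATAA, the core of GATA sites, which eosinophil transcription factors bind. The 3 motifs were searched separately, and overlapping matches were all counted.
Il1rn, chr2:24336610-24336849, plus strand: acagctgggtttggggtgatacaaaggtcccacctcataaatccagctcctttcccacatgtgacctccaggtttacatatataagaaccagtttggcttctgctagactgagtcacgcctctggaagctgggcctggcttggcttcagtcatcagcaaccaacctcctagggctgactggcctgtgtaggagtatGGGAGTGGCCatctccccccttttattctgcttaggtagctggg
Il1b, chr2:129371150-129371389, minus strand: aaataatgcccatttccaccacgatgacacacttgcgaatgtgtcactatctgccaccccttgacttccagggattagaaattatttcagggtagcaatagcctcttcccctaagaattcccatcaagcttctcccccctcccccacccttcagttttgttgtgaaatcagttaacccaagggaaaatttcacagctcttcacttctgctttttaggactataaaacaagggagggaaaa
Il1rl1 distal, chr1:40429320-40429559, plus strand: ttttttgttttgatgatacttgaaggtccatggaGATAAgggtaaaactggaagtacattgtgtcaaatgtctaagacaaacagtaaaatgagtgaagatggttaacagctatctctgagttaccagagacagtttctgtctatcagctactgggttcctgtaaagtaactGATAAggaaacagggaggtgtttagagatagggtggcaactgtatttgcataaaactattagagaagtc
Il1rl1 proximal, chr1:40439379-40439618, plus strand: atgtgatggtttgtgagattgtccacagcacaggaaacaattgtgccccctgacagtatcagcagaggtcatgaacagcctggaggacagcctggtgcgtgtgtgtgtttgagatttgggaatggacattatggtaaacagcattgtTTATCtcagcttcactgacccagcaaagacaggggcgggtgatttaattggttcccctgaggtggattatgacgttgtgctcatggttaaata

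The Il1rn window held 1 NF-kappaB match, 54 to 45 bases before the start, and the Il1b window held no match to any of the 3 motifs. The distal Il1rl1 window held 2 GATA matches and the proximal window 1. All 9 members had a RefSeq promoter, giving 14 windows, of which 4 held an NF-kappaB match, 1 a STAT match and 4 a GATA match. Among 32851 promoter windows of the same length from all genes, 44.2% held an NF-kappaB match, 6.77% a STAT match and 22.03% a GATA match. The STAT match stood in the window of Il1r2, 111 to 103 bases before its start. A match is a run of letters, and nothing was measured at these sites here.

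Il1b encodes IL-1 beta, which is made as an inactive precursor and cut by caspase-1. It had 205, 163, 81.3 and 86.9 CPM in IL5-Tg replicates 1, 2, 3 and 4, against 520, 214 and 291 CPM in WT replicates 1, 2 and 3. All 4 IL5-Tg libraries lay below all 3 WT libraries, although the gap between the highest IL5-Tg and the lowest WT library was small. The means were 134 ± 60.4 CPM (SD, n = 4) in IL5-Tg and 342 ± 159 CPM (SD, n = 3) in WT libraries. The log2 fold change was -1.35 ± 0.40 (SE) and did not pass (edgeR adjusted p = 0.307; DESeq2 adjusted p = 0.0692). Without WT replicate 1, the library with the most Il1b, it was -0.91 (edgeR adjusted p = 0.491). Within shared title starts, the library with start 82 had 0.156 times and that with start 86 had 0.406 times as much Il1b in IL5-Tg as in WT. Il1b maps to chr2:129364570-129371139 (minus strand), directly downstream of the printed promoter without a motif match, and across from the antisense gene Il1bos. The strand setting of the counting is not given, and Il1bos was listed at no more than 0.538 CPM in IL5-Tg and 1.80 CPM in WT libraries.

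Il1rn encodes the IL-1 receptor antagonist. It had 1063 and 1150 CPM in IL5-Tg replicates 1 and 2 and 367 and 431 CPM in IL5-Tg replicates 3 and 4, against 358, 215 and 386 CPM in WT replicates 1, 2 and 3. The first pair of IL5-Tg libraries stood well above every WT library. IL5-Tg replicate 3 lay within the WT range, and IL5-Tg replicate 4 lay a little above it. The group means were 753 ± 411 CPM (SD, n = 4) in IL5-Tg and 320 ± 91.6 CPM (SD, n = 3) in WT libraries, a log2 fold change of 1.24 ± 0.45 (SE) that did not pass (edgeR adjusted p = 0.429). Both high libraries carry the title start 81, which no WT library has, so their height and the start of the title cannot be told apart. Within start 82 the IL5-Tg library had 1.03 times and within start 86 it had 2.004 times the WT level. With the title start as a block, the log2 fold change was 0.52 (edgeR adjusted p = 0.999). Il1rn maps to chr2:24336853-24351494 (plus strand), and no other annotated gene overlaps it.

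Il1a encodes IL-1 alpha, an alarm cytokine that is active without caspase-1. It had 38.0, 36.4, 3.79 and 7.37 CPM in IL5-Tg replicates 1, 2, 3 and 4, against 22.4, 6.12 and 31.0 CPM in WT replicates 1, 2 and 3. The groups overlapped throughout, and the spread within IL5-Tg again followed the title start, with both libraries of start 81 high. The means were 21.4 ± 18.3 CPM (SD, n = 4) in IL5-Tg and 19.8 ± 12.6 CPM (SD, n = 3) in WT libraries, and the log2 fold change was 0.11 ± 0.86 (SE; edgeR adjusted p = 0.985). Its sign turned to negative with the title start as a block (-1.15) and in voom (-0.34). Il1a in IL5-Tg was 0.170 times the WT level within start 82 and 1.20 times within start 86. Il1a maps to chr2:129299610-129309972 (minus strand), 54598 bases from Il1b.

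Because the antagonist and the agonist compete for IL1R1, their reads were also set against each other within each library. There were 5.18, 7.05, 4.51 and 4.96 Il1rn reads per Il1b read in IL5-Tg replicates 1, 2, 3 and 4, against 0.688, 1.004 and 1.33 in WT replicates 1, 2 and 3. The groups did not overlap, and all 4 IL5-Tg libraries, of both levels of Il1rn, had more antagonist per agonist than any WT library. The mean ratio was 5.42 ± 1.12 (SD, n = 4) in IL5-Tg and 1.01 ± 0.319 (SD, n = 3) in WT libraries, 5.39 times as high in IL5-Tg. Per base of annotated exon the ratio was 1.56 to 2.43 in IL5-Tg and 0.237 to 0.457 in WT libraries, and per coding base 6.47 to 10.1 in IL5-Tg and 0.986 to 1.90 in WT libraries. Which transcript is the more abundant in WT cells thus depends on the length used, while the fold between the groups does not. Of the 36 pairs of members, 35 gave a ratio in every library, and 9 of these had groups that did not overlap, with the widest gap for Il1rn and Il1b. The share of such pairs among all genes was not computed, so the 9 are not a result about the members. The pair of Il1rn and Il1b was singled out with the values known, and no test was made of it.

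**Figure D2:**
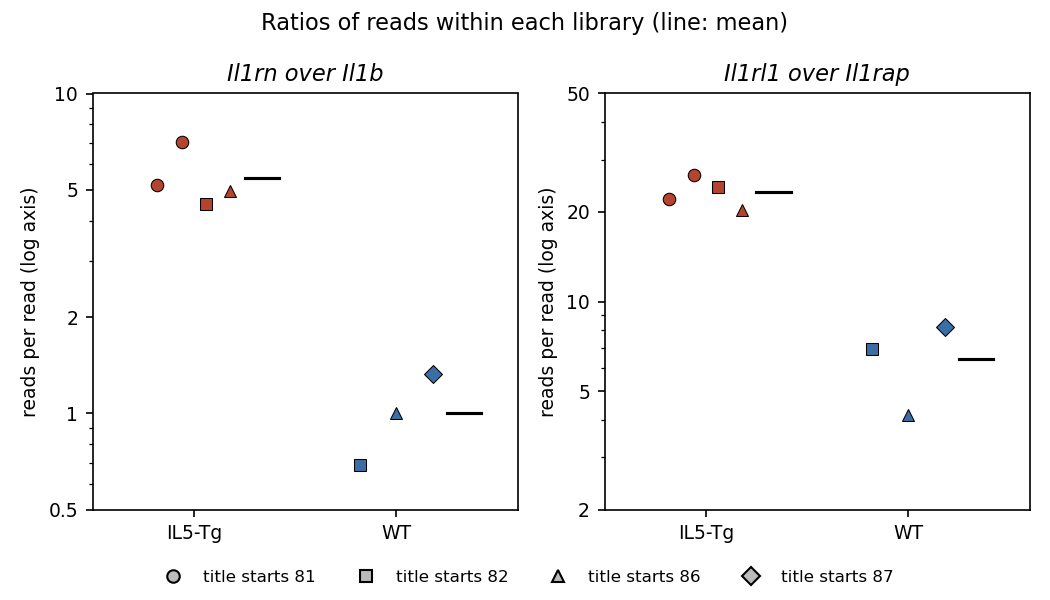
Reads of Il1rn per read of Il1b (left) and of Il1rl1 per read of Il1rap (right) in each library, on log axes, with IL5-Tg left of WT and symbols for the start of the sample title. The horizontal line is the group mean. Both pairs were singled out with the values known. The Il1rn to Il1b ratio lay at 4.51 to 7.05 in IL5-Tg and 0.688 to 1.33 in WT libraries.

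Il1rl1, the gene of the IL-33 receptor ST2, had the smallest p of the 9 members. It had 224, 323, 234 and 289 CPM in IL5-Tg replicates 1, 2, 3 and 4, against 112, 61.3 and 152 CPM in WT replicates 1, 2 and 3. All 4 IL5-Tg libraries lay above all 3 WT libraries, and those of title start 81 did not stand apart from the other IL5-Tg libraries. The means were 268 ± 46.5 CPM (SD, n = 4) in IL5-Tg and 109 ± 45.6 CPM (SD, n = 3) in WT libraries, a ratio of 2.46. The log2 fold change was 1.30 ± 0.32 (SE) and did not pass by edgeR (adjusted p = 0.185), while it passed by DESeq2 (1.32, adjusted p = 0.0102) and, without WT replicate 3, by edgeR (1.65, adjusted p = 0.0400). Within title starts the IL5-Tg library had 2.09 times the WT level at start 82 and 4.70 times at start 86. Il1rl1 maps to chr1:40429570-40465415 (plus strand), downstream of Il1r2 and Il1r1, and no other annotated gene overlaps it. The distal promoter printed for it, with its pair of GATA matches, ends just before the first base of the annotated gene. Counts per gene do not separate the membrane form of ST2 from the soluble form, which captures IL-33.

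Il1rap, the accessory chain that both IL1R1 and ST2 need, had a negative log2 fold change beside the positive one of Il1rl1. It had 10.1, 12.1, 9.62 and 14.2 CPM in IL5-Tg replicates 1, 2, 3 and 4, against 16.3, 14.8 and 18.5 CPM in WT replicates 1, 2 and 3. The groups did not overlap, but IL5-Tg replicate 4 and WT replicate 2, which share the title start 86, were nearly equal, at a ratio of 0.962. Within start 82 the ratio was 0.592. The log2 fold change was -0.52 ± 0.31 (SE) and did not pass (edgeR adjusted p = 0.726). Per base of annotated exon there were 33.4 to 43.8 units of Il1rl1 per unit of Il1rap in IL5-Tg libraries, against 6.84 to 13.6 in WT libraries, a mean 3.63 times as high in IL5-Tg. The groups of each gene already stood apart, in opposite directions, so those of the ratio had to as well. This pair too was singled out with the values known, and no test was made of it. Il1rap maps to chr16:26581704-26730117 (plus strand).

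Il1r2, the decoy receptor of IL-1, had 48.0, 48.7, 31.8 and 51.2 CPM in IL5-Tg replicates 1, 2, 3 and 4, against 148, 50.6 and 74.6 CPM in WT replicates 1, 2 and 3. The groups touched, since WT replicate 2 lay just under IL5-Tg replicate 4, and WT replicate 1 was far above the rest. The means were 44.9 ± 8.88 CPM (SD, n = 4) in IL5-Tg and 90.9 ± 50.5 CPM (SD, n = 3) in WT libraries. The log2 fold change of -1.02 ± 0.35 (SE) did not pass (edgeR adjusted p = 0.404), and it was -0.47 without WT replicate 1 (edgeR adjusted p = 0.648). Il1r2 in IL5-Tg was 0.215 times the WT level within title start 82 and 1.01 times within start 86. Il1r2 maps to chr1:40074079-40125231 (plus strand). The neutrophil genes S100a8 and S100a9 were also highest in WT replicate 1. S100a8 had 5.43 to 10.8 CPM in IL5-Tg libraries, against 157, 65.1 and 2.36 CPM in WT replicates 1, 2 and 3. S100a9 had 4.78 to 10.3 CPM in IL5-Tg libraries, against 171, 43.2 and 5.77 CPM in WT replicates 1, 2 and 3. Over the whole neutrophil list the sums were 4607, 5924, 3306 and 3876 CPM in IL5-Tg replicates 1, 2, 3 and 4, against 10174, 13020 and 13786 CPM in WT replicates 1, 2 and 3. Retnlg, the main part of these sums, had 2434 to 4224 CPM in IL5-Tg and 8849 to 10302 CPM in WT libraries, and Mmp9 had 803 to 1637 CPM in IL5-Tg libraries, against 952, 2589 and 3932 CPM in WT replicates 1, 2 and 3. The groups did not overlap in the sum of the list or in Retnlg, where 4.60% of all single tested genes were lower without overlap. Other genes of the list went the other way. Ngp had 26.3 to 33.5 CPM in IL5-Tg libraries and at most 0.362 CPM in WT libraries. Ltf had a log2 fold change of 0.97, and Camp had reads only in IL5-Tg replicates 3 and 4. The part of neutrophil RNA in the levels of Il1b and Il1r2 was not tested.

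**Figure D3:**
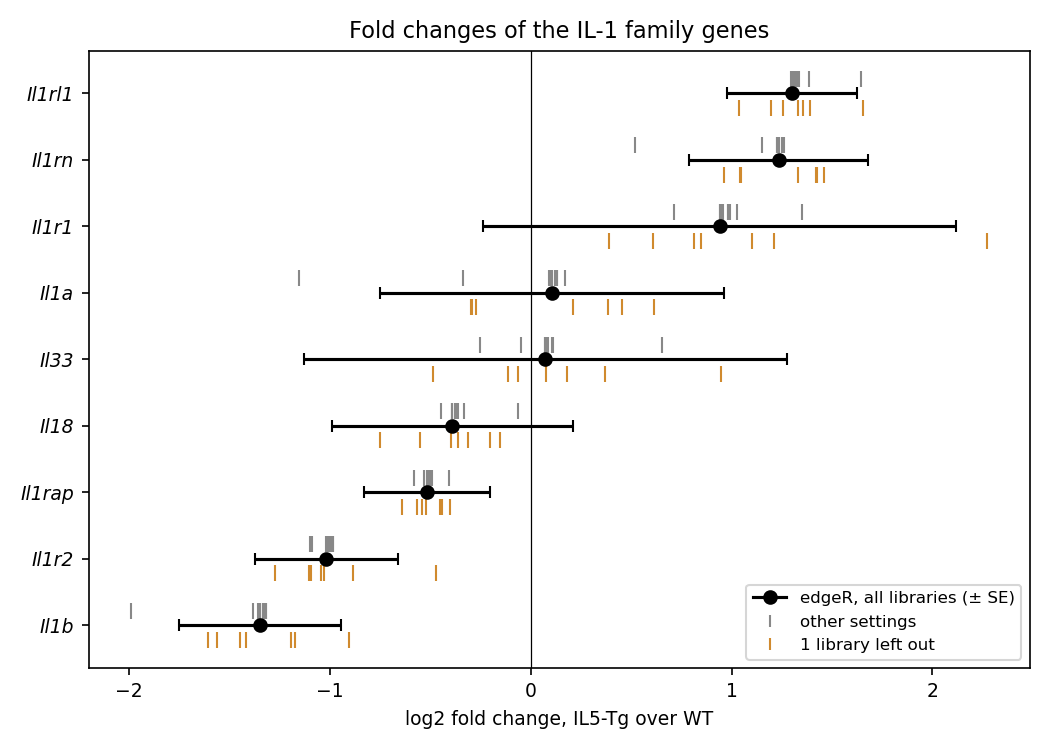
Log2 fold change of each member, IL5-Tg over WT, with its SE from edgeR over all libraries (black), under other settings (grey ticks) and with 1 library left out (orange ticks). Il1b and Il1r2 stayed below 0 and Il1rl1 and Il1rn above 0 under every setting shown, while Il1a and Il33 crossed it.

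Il1r1, the signalling receptor of IL-1, and Il33 were both at 0 reads in WT replicate 3. Il1r1 had 9.65, 5.84, 17.1 and 22.1 CPM in IL5-Tg replicates 1, 2, 3 and 4, against 15.5 and 5.70 CPM in WT replicates 1 and 2. Il33 had 19.2, 5.23, 14.5 and 19.8 CPM in IL5-Tg replicates 1, 2, 3 and 4, against 26.5 and 15.3 CPM in WT replicates 1 and 2. The 0 in WT replicate 3 allows up to 0.284 CPM by a floor of 3 reads in that library, or 3.40 CPM if 1 molecule gave 12 reads, its most common low count, and covers counting error only. Apart from that library the groups overlapped for both genes. The log2 fold changes were 0.94 ± 1.18 (SE; edgeR adjusted p = 0.907) for Il1r1 and 0.07 ± 1.20 (SE; edgeR adjusted p = 0.993) for Il33. Without WT replicate 3 they were 0.39 for Il1r1 and -0.49 for Il33, and without WT replicate 1 they were 2.27 and 0.95. Within title start 82 the IL5-Tg library had 1.10 times the WT level of Il1r1 and 0.547 times that of Il33. Within start 86 it had 3.87 times the WT level of Il1r1 and 1.295 times that of Il33. Il1r1 maps to chr1:40225080-40317257 and Il33 to chr19:29925114-29960718, both on the plus strand.

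All fibroblast markers but Pi16 were lowest in WT replicate 3, where Il33 and Il1r1 had no reads. Of the 9 marker genes, Pdgfra and Lum were at 0 reads in WT replicate 3, Dcn was at 0.945 CPM and Col1a1 at 4.82 CPM. Dcn had 91.5 to 383 CPM in IL5-Tg libraries, against 300 and 141 CPM in WT replicates 1 and 2. Col1a1 had 556 to 1102 CPM in IL5-Tg libraries, against 500 and 751 CPM in WT replicates 1 and 2. IL5-Tg replicate 2, which had the least Il33 and Il1r1 of its group, also had the least of all the markers but Col1a1 and Pi16. Col1a1 had 573 CPM there and 556 CPM in IL5-Tg replicate 3, and Pi16 was at its group's highest there, with 394 CPM. IL5-Tg replicate 1 had the most Col1a1 of its group, 1102 CPM, beside 9.65 CPM of Il1r1. Summed over the list the markers had 2177 to 4587 CPM in IL5-Tg libraries, against 2980, 3196 and 386 CPM in WT replicates 1, 2 and 3, and of the last sum Pi16 alone made up 372 CPM. Some markers of other cells were also low in WT replicate 3, as given below. The part of fibroblast RNA, or of RNA of other cells, in the levels of Il33 and Il1r1 was not tested.

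**Figure D4:**
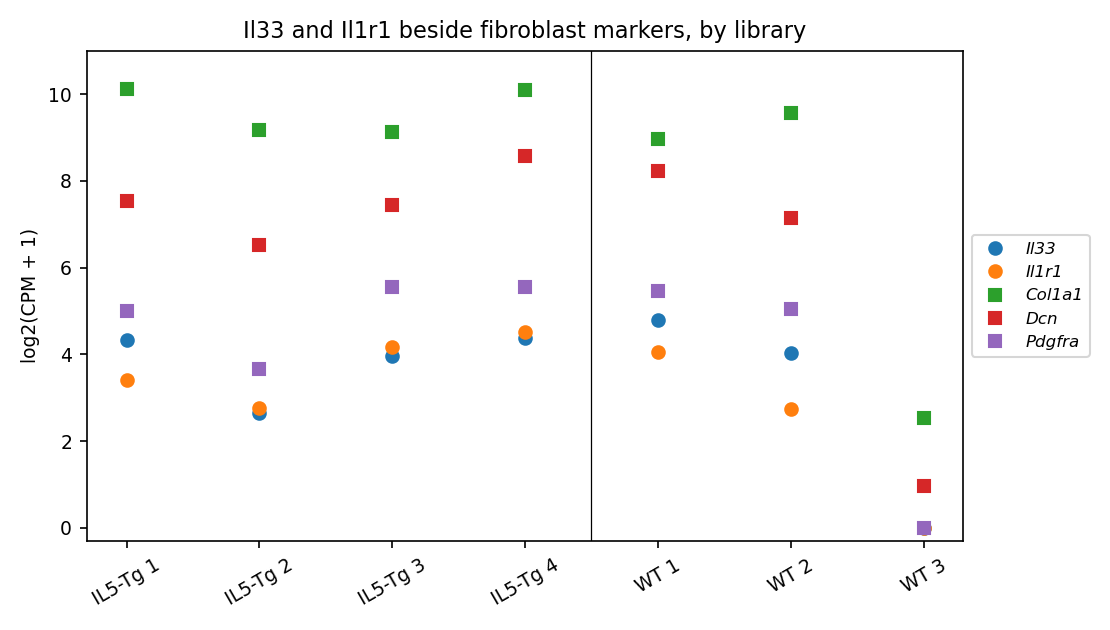
Levels of Il33 and Il1r1 (circles) and of the fibroblast markers Col1a1, Dcn and Pdgfra (squares) in each library as log2(CPM + 1), with IL5-Tg libraries left of the line and WT libraries right of it. In WT replicate 3 Il33, Il1r1 and Pdgfra had no reads, and Dcn had 0.945 CPM.

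Il18, the gene of another cytokine activated by caspase-1, was the lowest member by CPM. It had 2.25, 3.15, 3.57 and 6.28 CPM in IL5-Tg replicates 1, 2, 3 and 4, against 3.81, 6.44 and 4.82 CPM in WT replicates 1, 2 and 3. The groups overlapped, and the log2 fold change was -0.39 ± 0.60 (SE; edgeR adjusted p = 0.923). Il18 in IL5-Tg was 0.938 times the WT level within title start 82 and 0.975 times within start 86. Its 63, 61 and 51 reads in WT replicates 1, 2 and 3 amount to 12.6, 7.62 and 4.25 times the most common low count there. Il18 maps to chr9:50554827-50581840 (plus strand) and overlaps Bco2 and Tex12 on the other strand.

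Per kilobase of annotated exon, the order of the levels differed between the groups at the top. In IL5-Tg libraries Il1rn came first with 136 ± 74.3 CPM per kilobase, followed by Il1b with 70.4 ± 31.7, Il1rl1 with 38.8 ± 6.75 and Il1r2 with 23.5 ± 4.66 (SD, n = 4). In WT libraries Il1b came first with 179 ± 83.5 CPM per kilobase, followed by Il1rn with 57.7 ± 16.6, Il1r2 with 47.6 ± 26.5 and Il1rl1 with 15.8 ± 6.62 (SD, n = 3). In IL5-Tg libraries the spreads (mean ± SD) of Il1rn and Il1b and of Il1b and Il1rl1 overlapped, and in WT libraries those of Il1rn and Il1r2 and of Il1r2 and Il1rl1 did. Below them stood, in IL5-Tg libraries, Il1a at 10.8, Il33 at 5.09, Il18 at 3.70, Il1r1 at 2.15 and Il1rap at 1.01 CPM per kilobase. In WT libraries Il1a was at 10.04, Il18 at 4.87, Il33 at 4.83, Il1rap at 1.45 and Il1r1 at 1.11 CPM per kilobase. The spreads of neighbours among these low members overlapped in both groups. Exon length counts every annotated exon of a gene and so understates genes with rarely used exons, such as Il1rap with 11360 exon bases and 2449 coding bases.

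Of the remaining ligands and receptors of the family, 12 were counted. Of these, 6 had no read in any library, among them the IL-36 genes Il1f5, Il1f6 and Il1f8, and 4 passed the filter on low counts. None of the 4 passed by edgeR, DESeq2 or voom. At an unadjusted p under 0.05 there was 1, against 9.04% of all tested genes, or 0 of the 5 tested without WT replicate 1. That gene was Il1rl2, the IL-36 receptor, with 24, 70, 42 and 85 reads in IL5-Tg replicates 1, 2, 3 and 4, against 5, 10 and 0 reads in WT replicates 1, 2 and 3. Its groups did not overlap, and its log2 fold change was 3.06 ± 1.17 (SE; edgeR adjusted p = 0.465). The 10 reads of WT replicate 2 are close to the 8 reads of its most common low count. Il1f9, which encodes IL-36 gamma, had 7 reads in IL5-Tg replicate 3 and none in the other IL5-Tg libraries, against 111, 11 and 0 reads in WT replicates 1, 2 and 3. Il18rap, a chain of the IL-18 receptor, was at -0.65 ± 0.39 (log2 scale with SE; edgeR adjusted p = 0.718), while Il18r1, the other chain, had too few reads to be tested, with 13 at most in IL5-Tg and 14 at most in WT libraries. The binding protein gene Il18bp was at 0.14 and the inhibitory receptor gene Sigirr at -0.26 (log2 fold change).

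Genes that process or carry the IL-1 signal also gave no call. Of 13 inflammasome and processing genes tested, 0 passed by edgeR, DESeq2 or voom, and 2 had an unadjusted p under 0.05, both lower, against 5.54% of all tested genes. Nlrp3, the sensor that activates caspase-1, had 7.21, 4.996, 12.8 and 3.998 CPM in IL5-Tg replicates 1, 2, 3 and 4, against 39.1, 14.3 and 17.4 CPM in WT replicates 1, 2 and 3, without overlap (log2 fold change -1.70 with an SE of 0.50; edgeR adjusted p = 0.291). Aim2, a sensor of cytosolic DNA, was at -1.42 ± 0.52 (log2 scale with SE; edgeR adjusted p = 0.446), and Casp1, which cuts the precursors of IL-1 beta and IL-18, was at -0.33 on the log2 scale. The median of the list was -0.38, against 0.03 for all tested genes, and without WT replicate 1 it was 0.13, with 0 genes at an unadjusted p under 0.05. Of 15 receptor-proximal signalling genes 0 passed by any of the 3 tools and 3 had an unadjusted p under 0.05, all lower, against 5.54% of all tested genes, with a median of -0.19. The number lower at that level was 1 without WT replicate 3 (median -0.06) and 0 with the title start as a block (median -0.10). Among them Irak1, a kinase of the receptor complex, was at -0.67 ± 0.25 and Irak3, its inhibitor, at -0.92 ± 0.34 (log2 scale with SE; edgeR adjusted p = 0.444 and 0.446). Myd88, the adaptor, was at -0.19.

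Of the genes that IL-1 induces through NF-kappaB, 17 of 20 tested had a negative log2 fold change, against 5956 of all 12428 tested genes. None passed by edgeR or voom, and 10 had an unadjusted p under 0.05, all of them lower, where 5.54% of all tested genes were lower by that measure. DESeq2 called 3, Nfkbia, Tnf and Il6, all lower, where it called 0.677% of all genes lower. The median log2 fold change was -0.72. Nfkbia, the inhibitor that NF-kappaB itself induces, had 1798, 2004, 1586 and 984 CPM in IL5-Tg replicates 1, 2, 3 and 4, against 3367, 4423 and 3571 CPM in WT replicates 1, 2 and 3. Its groups did not overlap, and the log2 fold change was -1.25 ± 0.29 (SE; edgeR adjusted p = 0.148; DESeq2 adjusted p = 0.00416). Tnf, the gene of tumour necrosis factor, had 23.7, 17.6, 19.2 and 16.5 CPM in IL5-Tg replicates 1, 2, 3 and 4, against 101, 22.8 and 57.4 CPM in WT replicates 1, 2 and 3 (log2 fold change -1.65 with an SE of 0.42; edgeR adjusted p = 0.195). IL5-Tg replicate 1 lay just above WT replicate 2. Without WT replicate 2, Tnf passed by edgeR at -2.01 (adjusted p = 0.0243). Without WT replicate 1, which was high for Tnf and Il6, 6 of the 20 genes were lower at an unadjusted p under 0.05, 1 was higher, and the median was -0.50, and with the title start as a block 6 were lower and the median was -0.75. Many of these genes also respond to other stimuli and to tissue digestion, so the list does not measure IL-1 alone.

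Of the genes that IL-33 induces in its target cells, 6 of 9 were tested and 0 passed by edgeR or voom, although Il1rl1 was the member with the smallest p. DESeq2 called 1, Il6, which the NF-kappaB list also holds. It was lower, where DESeq2 called 0.677% of all genes lower. At an unadjusted p under 0.05 there were 2, both lower, where 5.54% of all tested genes were lower by that measure. Il4, a signature cytokine of eosinophils, had 21.5, 37.1, 20.7 and 19.5 CPM in IL5-Tg replicates 1, 2, 3 and 4, against 68.6, 37.1 and 57.9 CPM in WT replicates 1, 2 and 3 (log2 fold change -1.14 with an SE of 0.32; edgeR adjusted p = 0.254). Il6 had 8.43, 1.92, 7.58 and 4.72 CPM in IL5-Tg replicates 1, 2, 3 and 4, against 57.6, 7.39 and 26.9 CPM in WT replicates 1, 2 and 3 (log2 fold change -2.44 with an SE of 0.67; edgeR adjusted p = 0.256). Il13 was at 0.53 ± 0.52 (log2 scale with SE; edgeR adjusted p = 0.874). The median of the 6 was -0.86, and without WT replicate 1, when 5 were tested, it was 0.04.

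**Figure D5:**
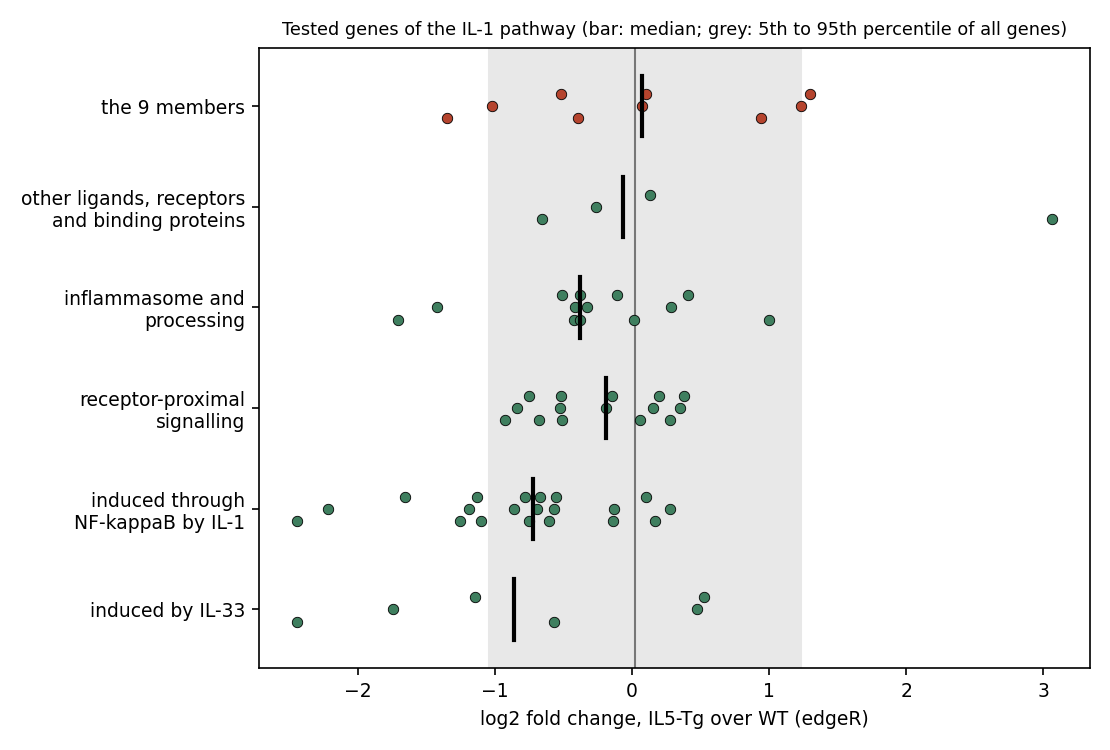
Log2 fold change, IL5-Tg over WT by edgeR, of the 9 members and of the tested genes of 5 lists of the IL-1 pathway, each dot a gene and each bar the median of a list. The grey band spans the 5th to 95th percentile of all tested genes, -1.04 to 1.24, and the genes induced through NF-kappaB had a median of -0.72.

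The profiles most like those of the 3 most abundant members were found among 7915 other tested genes with a mean of at least 10 CPM, by the root mean square difference of log2(CPM + 1) over the 7 libraries after each gene was centred on its own mean. For Il1rl1 they were Dach1 (0.0700), Sec24a (0.141) and Fut8 (0.264), where the median gene differed by 0.882. Dach1, a transcription factor gene, had 76.8, 102, 71.3 and 83.8 CPM in IL5-Tg replicates 1, 2, 3 and 4, against 34.6, 17.7 and 46.6 CPM in WT replicates 1, 2 and 3. For Il1rn they were Trem1 (0.193), Serpina11 (0.336) and Id1 (0.348), with a median of 0.903. Trem1, a receptor that amplifies inflammatory signals in myeloid cells, had 118 and 106 CPM in IL5-Tg replicates 1 and 2 and 43.1 and 47.0 CPM in IL5-Tg replicates 3 and 4, against 48.3, 19.3 and 36.4 CPM in WT replicates 1, 2 and 3, the same split by title start as Il1rn. For Il1b they were Irg1 (0.324), Il4 (0.432) and Icam2 (0.439), with a median of 0.936. Il1r2 was the 6th most alike to Il1b (0.444), and Il1a was the 4348th (0.964).

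The sorted cells carried the markers of eosinophils in all libraries, together with markers of other cells. The 11 eosinophil markers summed to 5297 to 10201 CPM in IL5-Tg and 3930 to 7584 CPM in WT libraries, and each had reads in every library. Of these, edgeR called 3, all higher in IL5-Tg, where it called 0.338% of all tested genes higher. They were the granule genes Prg2 (log2 fold change 2.76, adjusted p = 0.0160), Ear1 (3.21, adjusted p = 0.00311) and Ear6 (3.60, adjusted p = 0.0268). At an unadjusted p under 0.05, 5 of the 11 were higher and 1 was lower, against 3.49% and 5.54% of all tested genes. Il5ra (-0.97, edgeR adjusted p = 0.363) and Ccr3 (-0.59, edgeR adjusted p = 0.694) had negative log2 fold changes, while the rest of the list had positive ones. Siglecf was at 0.43, and Alox15, the largest part of the sums, at 0.60 on the log2 scale. The part of these differences among eosinophils in the members' levels was not tested. Macrophage and monocyte markers summed to 5578 to 7501 CPM in IL5-Tg and 5186 to 6693 CPM in WT libraries. Of the 8 tested genes of the neutrophil list, Retnlg was called lower (0.0724% of all tested genes) and Ngp higher (0.338% of all). Mast cell and basophil markers, which mark other cells known to express ST2, summed to 133 to 143 CPM in IL5-Tg and 238 to 538 CPM in WT libraries. Of their 7 tested genes 1, Hdc, the histamine synthesis gene, was called, lower, as were 0.0724% of all tested genes. Hdc made up much of the sums, with 37.5 to 66.9 CPM in IL5-Tg and 134 to 391 CPM in WT libraries. Mcpt4, Tpsb2 and Cma1 had at most 6.23, 9.77 and 5.76 CPM in IL5-Tg libraries, against at least 16.3, 24.2 and 11.2 CPM in WT libraries. None of these genes passed by edgeR except Hdc. At an unadjusted p under 0.05, 4 of the 7 were lower and 1 was higher, against 5.54% and 3.49% of all tested genes. Gata2, a transcription factor gene of the same list, had 56.3 to 74.96 CPM in IL5-Tg and 14.3 to 35.3 CPM in WT libraries, with no overlap (1.57 on the log2 scale; adjusted p = 0.126 by edgeR). The part of mast cells and basophils in the level of Il1rl1 was not tested. Markers of group 2 innate lymphoid cells and T cells, also known for ST2, summed to 15.99 to 26.5 CPM in IL5-Tg and 1.70 to 22.1 CPM in WT libraries, most of it Il7r and Rora, with Gata3 at 0.363 CPM or less in every library and at 0 in all 3 WT libraries. Dendritic cell markers summed to 707 to 1354 CPM in IL5-Tg and 434 to 1108 CPM in WT libraries, endothelial markers to 123 to 234 CPM in IL5-Tg and 168 to 172 CPM in WT libraries, and muscle fibre markers to 381 to 1196 CPM in IL5-Tg and 107 to 343 CPM in WT libraries. In WT replicate 3 the endothelial sum was mostly Pecam1 (160 CPM), and 3 endothelial and 3 dendritic cell markers had no reads. Its macrophage marker C1qa had 68.4 CPM, against 373 and 674 CPM in WT replicates 1 and 2. Adgre1, of the same list, went the other way, with 2459 CPM, against 1287 and 1416 CPM. Of 44 tested genes of the macrophage, lymphoid, fibroblast, dendritic cell, endothelial and muscle fibre lists, 0 passed by edgeR. At an unadjusted p under 0.05 there were 3, all higher, against 3.49% of all tested genes. DESeq2 called 2, against 1.81% of all genes, and voom 0, against 0.257%. The part of other cells in the levels of Il1rn, Il1a and Il18 was not tested.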

How the data were processed

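RNA was sequenced from sorted eosinophils in 7 libraries, 4 IL5-Tg and 3 WT by genotype label. The libraries were stranded and made from mRNA, and a NextSeq read them as short pairs, per the labels' protocols. The authors deposited raw counts of reads for each gene symbol. Tools named in the submitters' processing notes are bcl2fastq 2.20, STAR and Bowtie, and the build is mm10. No source used here gives the counting program, its annotation or its strand setting.

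Rows for reads without a feature (9.15% to 18.2% of counts) and for ambiguous reads (0.750% to 0.943%) were left out. Counts were tested in edgeR 4.0.16 (R 4.3.3) by quasi-likelihood, with TMM scaling, filterByExpr by group, robust estimation and genotype as the only term. Benjamini-Hochberg adjustment ran over all 12428 tested genes, with a threshold of 0.05. On simulated counts the procedure recovered 2% of 2-fold, 42% of 4-fold, 92% of 8-fold and 94% of 16-fold changes, with 50 changed genes at each fold. A gene that did not pass may therefore still differ by 2-fold or 4-fold. To find the most common low count, a window of up to 5 neighbouring counts was moved to where it held the most genes per count value. The count it was centred on was taken. At the lowest counts the window was cut off below 1 read, so a value of 1 lies at its edge. Replicate numbers follow accession order. Positions and exon lengths are from GENCODE vM21.

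Alternatives were other scaling (RLE, upper quartile), DESeq2 1.42.0, limma 3.58.1 (voom), no robust estimation, other count filters, removal of abundant genes, thinning, division by the most common low count, a block for the start of the sample titles, and dropping each library in turn. The members, lists and tests were chosen with earlier results of these data known. All members are named. Of each pathway list, the called genes or else the 2 with the smallest p are named, and others named beside them were chosen after their values were seen.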

Additional observations from a re-analysis of the deposited data

Results flagged for a closer look

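Il1r2 in IL5-Tg replicate 3 stood apart from its group, at 31.8 CPM, where the nearest of the other IL5-Tg libraries had 48.0 CPM, and the gap took 0.832 of the range of the group. The same comparison was made for 15 sets of 4 IL5-Tg values, the 9 members and 6 ratios between members, and 1 was flagged, where chance flags about 1 in 20.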

How the results depend on the processing

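Il1b, Il1r2, Il1rap, Il1rl1, Il1rn and Il1r1 kept their direction under all 18 alternatives, and Il18 under the 17 in which it was tested. The sign of Il1a turned in voom (-0.34) and with the title start as a block (-1.15), and ran from -0.30 to 0.61 with 1 library left out. That of Il33 turned after division by the most common low count (-0.050) and with the title start as a block (-0.25), and ran from -0.49 to 0.95 with 1 library left out. The number of members called was 1 by DESeq2 and 0 to 1 with 1 library left out, Il1rl1 in both cases, and 0 under the other alternatives. The number of all genes called was 51, against 225 by DESeq2, 32 by voom, 100 after division by the most common low count, and 16 to 97 with 1 library left out. The cause was not tested. No paired analysis was possible over all libraries, or by replicate number, because the labels number no replicates and only 2 libraries of each group share a title start with the other group. The block on title starts rests on those pairs and called 52 genes. Counts were low for Il18 and Il1rl2, and Il1r1 and Il33 were at 0 in WT replicate 3.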
